A study of Mus musculus with 6 samples.

Results

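Serine palmitoyltransferase is the enzyme of the endoplasmic reticulum that joins serine to a fatty acyl-CoA and so starts the synthesis of all sphingolipids. It is built from the core subunits SPTLC1 and SPTLC2 (or SPTLC3), needs a small activating subunit (SPTSSA or SPTSSB) for full activity, and is held back by the ORMDL proteins when ceramide is plentiful. SPTSSB lets the enzyme accept a longer acyl-CoA than SPTSSA does, and the desaturases DEGS1 and DEGS2 act further down the pathway, where DEGS1 turns dihydroceramide into ceramide and DEGS2 can also hydroxylate it to phytoceramide, a lipid of the gut and skin. The 10 genes described here were Sptssb, Sptssa, Sptlc1, Sptlc2, Sptlc3, Ormdl1, Ormdl2, Ormdl3, Degs1 and Degs2. They were found by symbol among the 55416 genes of the expression table, and each symbol matched 1 identifier. Sptssb was picked because of its rise with LDL in these same libraries, so its values are given as a description without a test, and the other members were added for their place in the complex or next to it.

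The samples were small intestinal organoids, which are crypts grown in Matrigel into closed epithelial structures. Crypts came from the duodenum and jejunum of 3 C57BL/6 mice labelled wild type, whose age and sex are not given in the sources used here. The organoids of each mouse received LDL at 50 μg/ml in some cultures and PBS in others and were collected after 5 days, so that each animal gave a pair of libraries, 1 per treatment (3 LDL-treated and 3 PBS-treated). The animal identifier of mouse 3 has another prefix than those of mice 1 and 2, although the genotype label is the same for all.

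The libraries held 22061545 to 31073360 reads assigned to genes. The LDL-treated library of mouse 1 stood apart, with reads on 35781 genes against 29285 to 32751 in the other libraries and with 7.62% of its reads on the ribosomal RNA gene Rn18s-rs5. All 8 epithelial markers were detected, and their summed normalized counts ranged from 73382 to 78318 with PBS and from 83191 to 106320 with LDL. None of them was called without the mouse as a block, and Krt8, Krt18 and Krt20 were called higher with it. Epcam, Cdx1 and Cdx2 had negative log2 fold changes. Summed markers of mesenchyme (83.7 to 171), endothelium (15.5 to 37.8) and immune cells (101 to 178) were low in every library, and Lum had at most 3 reads in any library. All 6 markers of fetal-like epithelium were higher with LDL in the means, with sums of 116 to 960 with PBS and 1842 to 20906 with LDL. None of these 6 was called without the mouse as a block and all were called with it, although not all of them reached the level needed for the test with PBS alone. Of 7 goblet cell markers, Agr2 and Fcgbp were called lower and Clca1 higher, Tff3 was also called lower with the block, and the list sum ranged from 44449 to 49968 with PBS and from 26857 to 32188 with LDL. Of 9 enterocyte markers, Alpi was called higher, and with the block Apoa4 and Fabp2 were also called higher and Lct lower. Of these 9 markers, 4 had a positive log2 fold change, the median was -0.20 and the sums were 25621 to 54507 with PBS and 26773 to 59255 with LDL. No marker of Paneth, enteroendocrine, tuft or stem cells was called, and with the block 5 were called lower and 2 higher. In such bulk libraries, fewer cells of a type and less RNA per cell cannot be told apart.

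The coding sequences of the small subunits are shown first, because reads of one could be mistaken for the other if they were alike. They are the reference sequences of the GENCODE M39 canonical transcripts (GRCm39), 216 bases for Sptssa and 231 bases for Sptssb, and capitals mark bases that are identical in a global alignment.
Sptssa: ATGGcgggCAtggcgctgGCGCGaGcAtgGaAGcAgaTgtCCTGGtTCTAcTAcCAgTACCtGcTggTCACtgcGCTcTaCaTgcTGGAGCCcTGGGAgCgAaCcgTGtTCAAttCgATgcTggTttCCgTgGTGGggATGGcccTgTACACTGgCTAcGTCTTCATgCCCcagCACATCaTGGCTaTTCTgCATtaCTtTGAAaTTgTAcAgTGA
Sptssb: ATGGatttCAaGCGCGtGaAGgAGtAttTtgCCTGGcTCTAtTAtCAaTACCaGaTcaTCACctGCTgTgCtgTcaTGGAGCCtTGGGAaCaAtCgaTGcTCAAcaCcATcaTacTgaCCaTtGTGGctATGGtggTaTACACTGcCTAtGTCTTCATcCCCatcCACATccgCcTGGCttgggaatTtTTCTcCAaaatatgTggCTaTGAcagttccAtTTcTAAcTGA
Of 205 aligned bases, 138 (67.3%) were identical, and the longest run shared by the coding sequences was 8 bases. Between the other pairs of paralogs, identity was 65.1% for Sptlc2 and Sptlc3, 67.8% for Degs1 and Degs2 and 72.9% to 75.5% among the Ormdl genes. Apart from genes that overlap them, no other annotated gene shared a stretch of at least 100 bases at 95% identity or more with the Sptssb, Sptssa, Sptlc1, Sptlc2, Degs1 or Degs2 transcript.

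Sptssb lies on chromosome 3 of GRCm39 from 69726871 to 69780651 on the minus strand. It had 11, 2 and 23 reads in the PBS-treated libraries of mice 1, 2 and 3, and 192, 153 and 376 reads in the LDL-treated libraries. These correspond to normalized counts of 11.2, 2.49 and 18.7 with PBS and 234, 139 and 314 with LDL. Every LDL-treated library was above every PBS-treated library, and in each treatment mouse 3 had the highest and mouse 2 the lowest level. The group means were 10.8 ± 8.13 with PBS and 229 ± 87.7 with LDL (SD, n = 3), and the log2 fold change on values plus 1 was 4.53 ± 0.62 (SE). Within a mouse, LDL-treated organoids held 20.9-fold more Sptssb reads in mouse 1, 56.0-fold more in mouse 2 and 16.8-fold more in mouse 3 after scaling. The 95% intervals from the read counts alone were 11.4 to 42.5, 15.2 to 466 and 11.0 to 26.8. The ratio of mouse 2 was thus the least precise, because it rests on 2 reads in the PBS-treated library.
Among 18459 genes tested, Sptssb had the 12th largest log2 fold change. Its level stood at the 3.77th percentile of these genes with PBS and at the 46.4th percentile with LDL. Markers of fetal-like epithelium moved in the same libraries, with sums of 960, 116 and 674 with PBS and 20906, 1842 and 15589 with LDL in mice 1, 2 and 3. Their part in the difference of Sptssb between treatments was not tested. Leaving out LDL of mouse 1, the library that stood apart, gave a log2 fold change of 4.48. It depended more on the PBS-treated libraries, at 3.81 without that of mouse 2 and 5.06 without that of mouse 3.

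**Figure D1:**
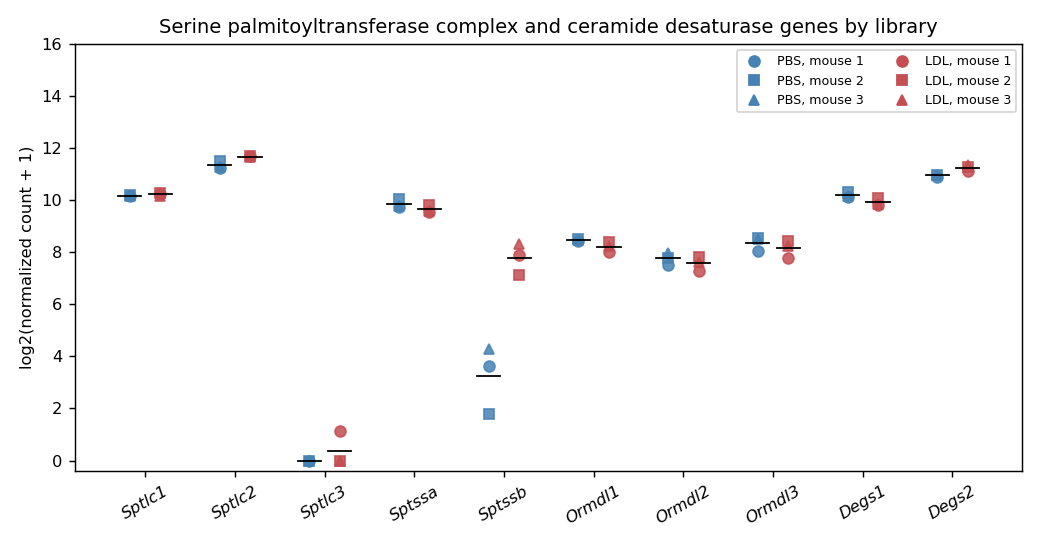
Normalized counts of the 10 genes in each of the 6 libraries, as log2(normalized count + 1); blue points are PBS-treated, red points LDL-treated organoids, the symbol gives the mouse and the black lines are group means of the log2 values. Sptssb shows the wide gap between treatments, Sptlc3 sits at or next to 0, and the other genes differ little between treatments.

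For the other members, LDL- and PBS-treated organoids were compared with limma over all 18459 genes tested, and calls required both a change beyond 1.5-fold and an adjusted p-value below 0.05. Sptlc3 did not reach the mean of 10 normalized counts needed for the test, which leaves 8 members besides Sptssb. In this comparison 1.27% of all genes were called and 0 of these 8 members. With the mouse as a block 9.14% of all genes were called and again 0 of the 8, and DESeq2 and edgeR called none of them either. At an unadjusted p-value under 0.05 from limma and any fold, 3 of the 8 passed without and 5 with the block. The share of all genes at this unadjusted threshold was not counted, so no excess can be read from these counts. The log2 fold changes of the 8 had a median of -0.20 beside -0.02 for all genes tested. Without the fold threshold, 15.7% of all genes passed the adjusted p-value with the block (8.27% higher and 7.45% lower), and so did Sptlc2 and Degs2, which were higher, and Degs1, which was lower.

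Sptssa, the other small subunit, is on chromosome 12 from 54692171 to 54703363. Its normalized counts were 858, 1070 and 881 with PBS and 742, 902 and 770 with LDL in mice 1, 2 and 3. The value was lower with LDL in each mouse, but the groups overlapped. The log2 fold change was -0.22 ± 0.13 (SE; adjusted p = 0.388 from limma without and 0.106 with the block).
Expressed per length, as reads per kilobase of annotated exons scaled to library depth (RPKM), Sptssa had 23.1 ± 1.61 with PBS and 19.6 ± 3.09 with LDL, and Sptssb had 0.112 ± 0.0849 and 2.29 ± 0.998 (SD, n = 3). Sptssb thus remained below Sptssa in all 6 libraries. Its share of the summed RPKM of both small subunits was 0.531%, 0.0947% and 0.860% with PBS and 11.4%, 5.92% and 14.3% with LDL in mice 1, 2 and 3. With the length of the canonical transcript in place of all exons the LDL-treated shares were 11.6%, 6.00% and 14.4%. The sum of both was 23.2 ± 1.54 with PBS and 21.9 ± 3.08 with LDL (SD, n = 3), so that the total small-subunit level differed by less than the spread between LDL-treated libraries. Library depth in RPKM counts all reads on genes, including the 7.62% on Rn18s-rs5 in the LDL-treated library of mouse 1. In that mouse, Sptlc1 and Degs2 were lower with LDL in RPKM but higher in normalized counts. Shares and ratios within a library do not depend on depth.

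**Figure D2:**
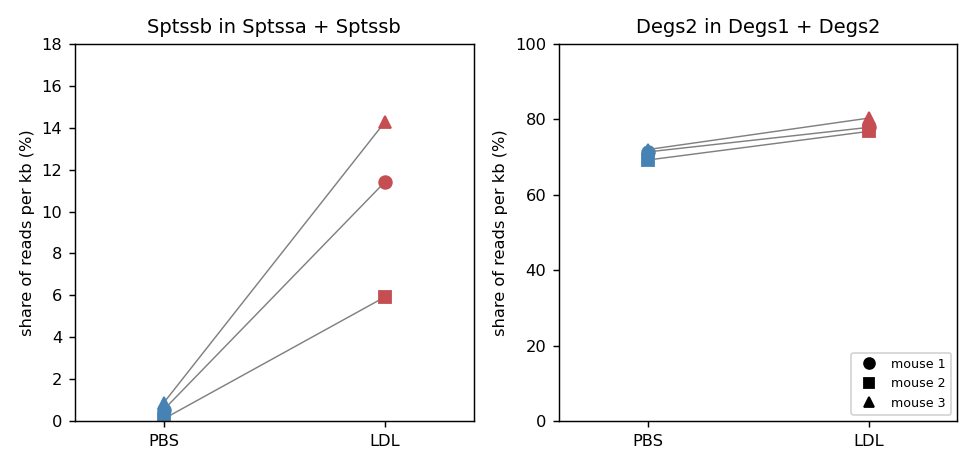
Share of Sptssb in the RPKM of Sptssa and Sptssb (left, axis to 18%) and of Degs2 in the RPKM of Degs1 and Degs2 (right, axis to 100%) in PBS- and LDL-treated organoids, with lines joining the libraries of a mouse. The Sptssb share is under 1% in each PBS-treated library and 5.92% to 14.3% with LDL, and the Degs2 share is higher with LDL in each mouse.

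Sptlc1, the subunit common to all forms of the enzyme, is on chromosome 13 from 53486729 to 53531449. It had normalized counts of 1129, 1187 and 1149 with PBS and 1204, 1248 and 1158 with LDL. A long noncoding RNA gene, Gm60480, overlaps 10.2% of its exon bases on the opposite strand. The ranges overlapped, and the log2 fold change was 0.06 ± 0.08 (SE; adjusted p = 0.752 from limma).
Sptlc2, the catalytic partner of Sptlc1, is on chromosome 12 from 87351832 to 87435267. Its normalized counts were 2387, 2897 and 2479 with PBS and 3315, 3294 and 3203 with LDL. The LDL-treated values lay close together and above all PBS-treated values, with means of 2587 ± 272 and 3271 ± 59.3 (SD, n = 3). The log2 fold change was 0.34 ± 0.10 (SE), which did not pass the test without the block (adjusted p = 0.119 from limma) and passed it with the block below the fold threshold (adjusted p = 0.0293 from limma). Without both libraries of mouse 1 the block gave an adjusted p-value of 0.171 from limma.
Per length, Sptlc1 was at 6.85 ± 0.186 and Sptlc2 at 8.50 ± 0.437 RPKM with PBS, and at 6.99 ± 0.596 and 10.6 ± 0.808 RPKM with LDL (SD, n = 3). The RPKM ratio of Sptlc2 to Sptlc1 was 1.17, 1.36 and 1.20 with PBS and 1.53, 1.47 and 1.54 with LDL in mice 1, 2 and 3, and the groups did not overlap. How often this holds for other pairs of genes was not counted. The level of the ratio, but not its change between treatments, depends on the gene lengths used.
Sptlc3, the alternative catalytic subunit, which broadens the range of acyl-CoA chains used, lies on chromosome 2 from 139335833 to 139479594. A single read was counted on it, in the LDL-treated library of mouse 1. With no read in a library, counting error allows up to 3 reads there, so no fold change is given.

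The 3 Ormdl genes encode the membrane proteins that inhibit the enzyme. Ormdl1 on chromosome 1 (53336228 to 53349477) had normalized counts of 348, 367 and 353 with PBS and 257, 331 and 299 with LDL. All LDL-treated values were below all PBS-treated values, and the log2 fold change was -0.27 ± 0.13 (SE; adjusted p = 0.289 from limma). Ormdl2 on chromosome 10 (128652487 to 128657521) had 183, 221 and 251 with PBS and 154, 224 and 198 with LDL. It was lower with LDL in mice 1 and 3 and 1.01-fold higher in mouse 2, and the log2 fold change was -0.19 ± 0.19 (SE; adjusted p = 0.639 from limma). Ormdl3 on chromosome 11 (98472081 to 98478194) had 265, 378 and 360 with PBS and 220, 343 and 304 with LDL. Its groups overlapped although it was lower in each mouse, and the log2 fold change was -0.22 ± 0.21 (SE; adjusted p = 0.617 from limma).
None of the 3 passed the test with the block either (adjusted p = 0.136, 0.372 and 0.202 from limma). In RPKM the Ormdl genes lay between 2.14 and 2.79 on average with PBS and between 1.86 and 2.31 with LDL. Their sum was 7.62 ± 0.691 with PBS and 6.46 ± 1.55 with LDL (SD, n = 3), where the LDL-treated library of mouse 1 had 4.68 and the others 7.54 and 7.15. In normalized counts the sums were 796, 966 and 963 with PBS and 631, 898 and 800 with LDL in mice 1, 2 and 3.
The libraries were made with a kit that keeps strand, but the strand setting of the counting is not given in the sources used here, so reads of genes that overlap on opposite strands may be mixed. Exons of Dnajc14 cover 56.6% of the Ormdl2 exon bases on the opposite strand, and those of Pms1 cover 5.16% of Ormdl1. Dnajc14 had a log2 fold change of -0.02 and Pms1 of -0.21. A processed pseudogene of Ormdl3, Gm12538, matched 400 bases at 97.3% identity and had normalized counts of 12.2 to 25.6.

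The desaturases had log2 fold changes of opposite sign, both below 1.5-fold. Degs1 on chromosome 1 (182103335 to 182110389) had normalized counts of 1113, 1281 and 1137 with PBS and 905, 1091 and 926 with LDL. All LDL-treated values lay below the PBS-treated ones, and the log2 fold change was -0.27 ± 0.11 (SE; adjusted p = 0.222 from limma without and 0.0476 with the block). Degs2 on chromosome 12 (108644970 to 108668586) had 1920, 1994 and 2022 with PBS and 2208, 2505 and 2621 with LDL. All LDL-treated values were higher, and the log2 fold change was 0.30 ± 0.09 (SE; adjusted p = 0.139 from limma without and 0.0338 with the block). Without both libraries of mouse 1 the block gave adjusted p-values of 0.195 for Degs1 and 0.0675 for Degs2 from limma.
Degs2 was the most abundant of the 10 genes per length, with 29.5 ± 1.39 RPKM with PBS and 35.9 ± 6.28 with LDL, and Degs1 had 12.1 ± 0.295 and 9.86 ± 1.51 (SD, n = 3). The share of Degs2 in both was 71.4%, 69.2% and 72.0% with PBS and 77.9%, 76.8% and 80.3% with LDL in mice 1, 2 and 3. Exons of Evl overlap 10.8% of the Degs2 exon bases on the opposite strand, and Evl had a log2 fold change of 0.28.

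**Figure D3:**
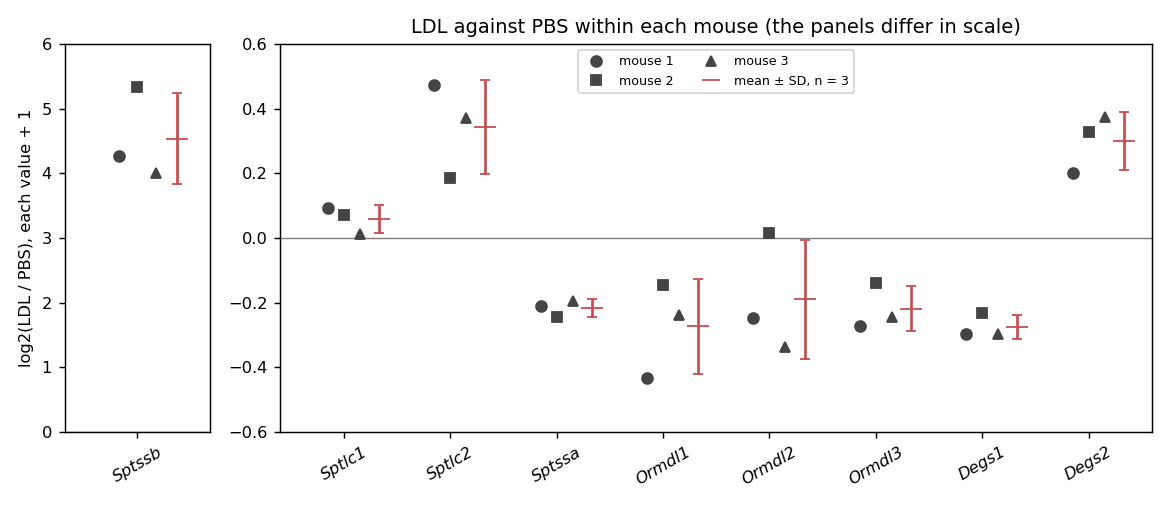
log2 ratio of LDL- to PBS-treated organoids within each mouse (values plus 1) for the 9 genes tested, with Sptssb in its own panel on a wider scale; red bars are the mean ± SD over 3 mice. Sptssb lies at 3.999 to 5.33 in the 3 mice, Sptlc2 and Degs2 lie above 0 and Sptssa, Ormdl1, Ormdl3 and Degs1 below 0 in each mouse.

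Across the 8 tested members besides Sptssb, 3 had a positive and 5 a negative log2 fold change. In 7 of the 8 the direction was shared by all 3 mice, against 51.1% of all genes tested. It was upward in 3 members, against 24.2% of all genes, and downward in 4, against 26.8%. The ranges of the treatments were separate, with LDL higher, in Sptlc2 and Degs2 (11.9% of all genes). They were separate with LDL lower in Ormdl1 and Degs1 (12.3% of all genes). Ordered by mean RPKM with PBS, the levels were Degs2, Sptssa, Degs1, Sptlc2, Sptlc1, Ormdl1, Ormdl3, Ormdl2, Sptssb and Sptlc3. The order of Sptlc2 and Sptlc1 depends on the lengths used, here 11746 and 6526 bases of annotated exons. With those of the canonical transcripts (6848 and 2639 bases) Sptlc1 would come first. Ormdl1 and Ormdl3 differed by less than the spread of Ormdl3 over the PBS-treated libraries, and Ormdl2 was below Ormdl3 in each of these libraries. With LDL, the mean of Sptssb (2.29 ± 0.998 RPKM) lay within the range of the Ormdl means (1.86 ± 0.464 to 2.31 ± 0.649, SD, n = 3). In single LDL-treated libraries, its RPKM was above all Ormdl genes in mice 1 and 3 and below all of them in mouse 2. With PBS, Sptssb was below all of them in every library.

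The promoters are printed because Sptssb and Sptlc3, the members with little or no RNA with PBS, differ from the rest in their content of CpG pairs. The sequences are those of RefSeq on GRCm38.p6, a build earlier than that of the counts, and run from 250 bases before to 50 bases after the annotated start. All 10 members were found in that table with 1 promoter each. They are shown for Sptssb (chr3:69859845-69860144, minus strand), Sptlc3 (chr2:139493663-139493962, plus strand) and Sptssa (chr12:54656523-54656822, minus strand), with CpG pairs in capitals.
Sptssb: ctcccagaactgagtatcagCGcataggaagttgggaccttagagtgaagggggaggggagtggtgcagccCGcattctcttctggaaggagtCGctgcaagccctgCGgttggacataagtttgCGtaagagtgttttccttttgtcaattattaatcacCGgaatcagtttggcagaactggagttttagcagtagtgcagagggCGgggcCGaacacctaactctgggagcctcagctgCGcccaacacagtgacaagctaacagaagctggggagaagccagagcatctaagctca
Sptlc3: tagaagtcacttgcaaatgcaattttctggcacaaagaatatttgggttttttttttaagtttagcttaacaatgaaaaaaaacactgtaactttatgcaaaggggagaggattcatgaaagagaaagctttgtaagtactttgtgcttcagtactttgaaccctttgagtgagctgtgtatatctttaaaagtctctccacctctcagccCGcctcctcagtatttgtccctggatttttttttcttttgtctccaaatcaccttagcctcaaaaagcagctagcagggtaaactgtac
Sptssa: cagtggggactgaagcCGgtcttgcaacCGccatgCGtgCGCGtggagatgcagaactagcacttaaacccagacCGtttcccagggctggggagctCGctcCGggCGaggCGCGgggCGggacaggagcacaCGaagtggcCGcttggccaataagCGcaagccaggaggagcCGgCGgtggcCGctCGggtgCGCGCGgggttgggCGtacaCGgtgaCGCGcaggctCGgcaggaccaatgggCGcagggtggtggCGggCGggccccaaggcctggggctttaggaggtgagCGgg
The windows hold 9 CpG pairs in Sptssb, 1 in Sptlc3 and 31 in Sptssa, and the other members hold 19 to 28. The median over 32851 promoters of the table was 7. The half-site AGGTCA bound by PPARs and other nuclear receptors, searched on both strands, was in none of the 10 windows and in 16.3% of all promoters. The letters GGGCGG, a GC box, occurred once in the Sptssb window and in 35.7% of all promoters, and CCAAT and TATAAA did not occur there (37.4% and 13.6% of all).

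The genes whose levels followed Sptssb most closely were sought among the 11930 genes whose normalized counts averaged 100 or more, by Pearson's r of log2 values over the 6 libraries. They were Cldn2 (r = 0.996), Odc1 (r = 0.995), Lamb3 (r = 0.994), Kcnn4 (r = 0.994) and Sp5 (r = 0.994). Cldn2 encodes a claudin of leaky tight junctions, Odc1 the first enzyme of polyamine synthesis, Lamb3 a laminin chain, Kcnn4 a potassium channel and Sp5 a Wnt-responsive transcription factor. The 6 points fall into the treatment groups and share size factors, so these values describe likeness in this experiment only. Their changes were far smaller than that of Sptssb: Cldn2 had normalized counts of 3545, 2863 and 4094 with PBS and 7400, 6020 and 7741 with LDL, and Odc1 had a log2 fold change of 0.19. Sp5 had the largest log2 fold change of these genes at 1.75. In Cldn2, Odc1, Kcnn4 and Sp5, as in Sptssb, mouse 3 was highest and mouse 2 lowest in each treatment, and in Lamb3 with PBS only. Among the members, Degs1 (r = -0.91) and Degs2 (r = 0.84) had the values farthest from 0.

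The rest of the sphingolipid pathway was described with 62 genes in 10 lists by role, of which 52 were tested. Without the block, 1 was called higher (Aldh3a2) and 3 lower (Psph, Psat1 and Glb1), beside 0.878% and 0.395% of all genes. With the block, 5 were called higher and 7 lower, beside 5.68% and 3.46% of all genes. The 5 include Cers3, which reached the level needed for the test only through its LDL-treated libraries. The median log2 fold change of the 52 genes was -0.10 beside -0.02 for all genes tested. The groups did not overlap in 12 of the 52 with LDL higher, Cers3 among them, and in 9 with LDL lower. Of all genes tested, this held for 11.9% and 12.3%. In the blocked fit without both libraries of mouse 1, Arsa lost its call (adjusted p = 0.206 from limma) and B4galt6 fell just under 1.5-fold (log2 fold change 0.58), while the other 10 genes kept theirs. These 10 include Cers3, whose calls are no test because its LDL-treated values let it enter.

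Upstream of the enzyme, serine is made from glycolytic intermediates. Of 5 tested genes of serine supply, Psph and Psat1, which encode the last steps of serine synthesis, were called lower. Psph had normalized counts of 757, 712 and 614 with PBS and 333, 453 and 312 with LDL, and Psat1 had 4723, 4558 and 3945 with PBS and 2353, 3138 and 2389 with LDL. The groups did not overlap, and the log2 fold changes were -0.94 ± 0.16 and -0.76 ± 0.14 (SE; adjusted p = 0.0411 and 0.0461 from limma). Phgdh, Shmt1 and Shmt2 had log2 fold changes between -0.27 and -0.22 and were not called. Both calls were lost when any 1 of the PBS-treated libraries, or the LDL-treated library of mouse 1 or 3, was left out.

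Next in the pathway, KDSR reduces the product of the enzyme and the ceramide synthases add a second acyl chain, each with its own preference for chain length. Of the 6 tested genes of reduction and acylation, 5 were called in neither fit. The other, Cers3, averaged 4.29 normalized counts with PBS and entered the test only through its high LDL-treated values, so its values are given without a p-value. Cers3, known for ceramides with very long chains in skin, had normalized counts of 3.06, 2.49 and 7.33 with PBS and 73.2, 8.18 and 38.5 with LDL in mice 1, 2 and 3. Every LDL-treated value was higher, but the LDL-treated values spread widely (39.9 ± 32.5, SD, n = 3). Its log2 fold change on values plus 1 was 2.61 ± 0.75 (SE). Fa2h, whose product hydroxylates the fatty acid of ceramide, had too few reads to be tested, with normalized counts of 1.02, 1.24 and 0.814 with PBS (1 read in each library) and 22.0, 3.64 and 14.2 with LDL. In both genes the LDL-treated libraries ranked mouse 1, mouse 3, mouse 2, as did the number of genes with a read (35781, 32751 and 29870) and the sum of the fetal-like markers. The part of these in the difference was not tested.
Kdsr had a log2 fold change of -0.34 and Cers4 of -0.48, and neither was beyond 1.5-fold. Cers6 was the member of this list with the most reads, at 9191 ± 598 with PBS and 7850 ± 691 with LDL (SD, n = 3), and its groups overlapped (adjusted p = 0.278 from limma).

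In the use of ceramide, Sgms2, a sphingomyelin synthase of the plasma membrane, had normalized counts of 1971, 2685 and 1868 with PBS and 1243, 1582 and 1109 with LDL. Its values did not overlap and the log2 fold change was -0.73 ± 0.18 (SE; adjusted p = 0.0905 from limma without and 0.000963 with the block). Of the other 3 genes of sphingomyelin synthesis none was called, and Sgms1 had a log2 fold change of -0.11. B4galt6, a lactosylceramide synthase, had 2344, 1774 and 2156 with PBS and 4123, 2449 and 3509 with LDL. In limma it was called with the block only, with a log2 fold change of 0.66 ± 0.20 (SE; adjusted p = 0.128 from limma without and 0.00308 with the block). DESeq2 without the block called it as well. The other 6 tested genes of glycosphingolipid synthesis, including the glucosylceramide synthase gene Ugcg with a log2 fold change of 0.28, were not called. No gene of ceramide 1-phosphate or of sphingomyelin breakdown was called in either fit.
In glycosphingolipid breakdown, 1 of 9 genes was called lower without the block and 3 with it. Glb1, the lysosomal beta-galactosidase, had normalized counts of 1185, 1359 and 1290 with PBS and 689, 925 and 736 with LDL, a log2 fold change of -0.72 ± 0.13 (SE; adjusted p = 0.0469 from limma), and it lost its call when any 1 library other than the LDL-treated library of mouse 2 was left out. Arsa, which encodes the arylsulfatase that degrades sulfatide, differed by -0.61 on the log2 scale and was called in the blocked fit only (adjusted p = 0.416 from limma without and 0.0391 with the block). Of 5 ceramidases, Asah2, the ceramidase of the brush border, had a log2 fold change of -0.66, with a call in the blocked fit only (adjusted p = 0.374 from limma without and 0.00230 with it). Asah2 differed strongly between mice, with 1704, 3453 and 1535 with PBS and 1015, 2118 and 1074 with LDL.

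At the end of the pathway, sphingosine 1-phosphate is made by sphingosine kinases, exported by SPNS2 or cleaved to a fatty aldehyde. Aldh3a2, which encodes the dehydrogenase that oxidizes such aldehydes, had normalized counts of 1503, 1699 and 1509 with PBS and 3231, 3386 and 3111 with LDL. The treatments were far apart compared with the spread within them, and the log2 fold change was 1.05 ± 0.09 (SE; adjusted p = 0.00339 from limma). It was called in each fit that left out 1 library, and not without both libraries of mouse 3. Sphk1, a sphingosine kinase gene, had 35.7, 33.6 and 24.4 with PBS and 43.9, 95.5 and 74.4 with LDL, and Spns2 had 66.4, 68.3 and 63.5 with PBS and 207, 96.4 and 174 with LDL. Neither overlapped between treatments, which held for 11.9% of all genes in this direction. In limma both were called with the block only (adjusted p = 0.123 and 0.0872 from limma without, 0.0386 and 0.0138 with it). DESeq2 without the block called both as well. Sphk2 had a log2 fold change of -0.36 and was not called. The lyase gene Sgpl1 (-0.04) and the phosphatase genes Sgpp1 (-0.14) and Sgpp2 (0.12) had small log2 fold changes and were not called.

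**Figure D4:**
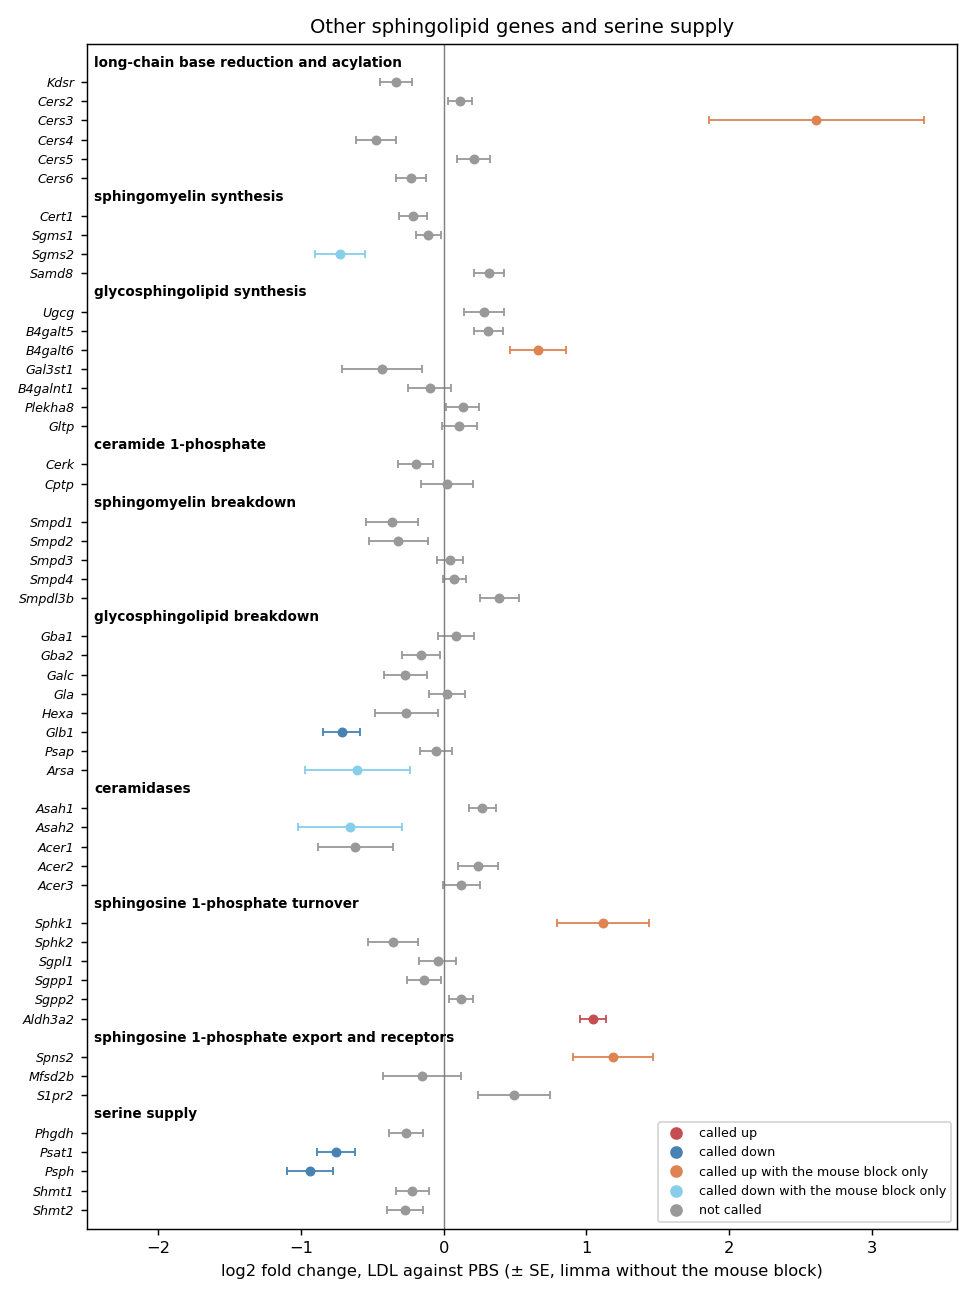
log2 fold change of LDL- against PBS-treated organoids with its standard error (limma without the mouse block) for the tested genes with 1 left out, grouped by role. Red and blue mark genes called higher and lower without the block, orange and light blue those called with the block only, all in limma. The 4 genes called without the block are Aldh3a2 (1.05), Glb1 (-0.72), Psat1 (-0.76) and Psph (-0.94).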

How the data were processed

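RNA-Seq was analyzed in 6 libraries, LDL- and PBS-treated organoids of 3 mice, grouped by their labels. The deposited signal values are normalized counts: the authors aligned reads to GRCm39 with STAR, counted them per gene with featureCounts and divided them by 1 size factor per library. Demultiplexing used bcl2fastq 2.20 according to the submitters' processing notes. Undoing the size factors gave whole reads, within 0.01, for 100% of the values. Identifiers were matched to GENCODE M39 (54749 of 55416), which also gave exon lengths.

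Values plus 1 were taken to log2 where a gene's mean reached 10, and LDL was compared with PBS using limma 3.58.1 in R 4.3.3 (eBayes with a trend, two-sided, Benjamini-Hochberg over 18459 genes). The mouse was not a term, as the study's methods name none for this assay. A fit with the mouse as a replicate block was an alternative: same-numbered libraries carry the same animal identifier, and their deviations from the group means correlated with r = 0.48, 0.42 and 0.46 across genes. DESeq2 1.42.0 and edgeR 4.0.16 were run on the recovered reads as alternatives. The steps were tested on simulated data. P-values measure the spread between these cultures.

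The members and lists were chosen with earlier results of these data known. Named genes were all members, list genes called with or without the block, and the 5 genes most like Sptssb, apart from 1 list gene that is counted but not reported here by name. Other genes are named as examples of their lists and were picked after their values were seen. Libraries held 22061545 to 31073360 reads on genes, and intervals and the floor of 3 reads cover counting error only. Sequences were aligned and plots drawn with Python 3.11.15, pandas 2.3.3, scipy 1.17.1, Biopython 1.88 and matplotlib 3.10.9.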

Additional observations from a re-analysis of the deposited data

How the results depend on the processing

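Over 18 alternatives, the 8 tested members besides Sptssb kept their direction and stayed uncalled in all 144 values. The log2 fold change of Sptssb ranged from 3.81 (without the PBS-treated library of mouse 2) to 5.06 (without that of mouse 3). The numbers of genes called higher and lower (162 and 73), and of sphingolipid pathway genes (1 and 3), moved with the model. They were 1048 and 639, and 5 and 7, with the mouse as a replicate block in limma, 846 and 348, and 5 and 5, in DESeq2, 981 and 511, and 5 and 6, in DESeq2 with the block, 1171 and 588, and 5 and 6, in edgeR with the block, and 506 and 245, and 2 and 5, without a filter on the mean. With the block and without mouse 1, an alternative chosen after seeing the data, they were 758 and 327, and 4 and 6. The mouse block changed the call of none of the 8 members besides Sptssb. Leaving out replicates in turn gave 18 to 1179 genes higher, 2 to 1133 lower, 1 to 4 pathway genes higher and 0 to 7 lower. It gave 0 to 1 members, which was Sptssb, with 0 without PBS from mouse 1 or LDL from mouse 3. Sptssb was picked for its rise in these libraries, so its calls are no test. Without both libraries of mouse 3 limma called 0 genes in either direction, 0 members and 0 pathway genes, while 605 and 387 genes had an unadjusted p-value under 0.05 beyond 1.5-fold. That fit held only 4 libraries. For the other settings the cause was not tested. With 2 to 23 Sptssb reads in PBS-treated libraries, depth limits how exactly its ratio is known.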

Other observations

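Several sphingolipid genes had too few reads to be tested, and are given as values. Among the sphingosine 1-phosphate receptors, only S1pr2 reached the mean needed for the test, with normalized counts of 54.1, 54.7 and 60.2 with PBS and 82.9, 57.3 and 106 with LDL, which amounts to 0.49 on the log2 scale (limma, adjusted p = 0.328). S1pr1, S1pr4 and S1pr5 had normalized counts of at most 6.10 in any library. S1pr3 was listed at 0 in all PBS-treated libraries and had 4.88, 1.82 and 0.836 with LDL in mice 1, 2 and 3. A4galt, the globotriaosylceramide synthase gene, had 9.19, 8.70 and 11.4 with PBS and 2.44, 5.46 and 5.02 with LDL, so that its groups did not overlap, which held for 12.3% of the tested genes in this direction. St3gal5, the gene of the first ganglioside synthase, and Ugt8a, that of galactosylceramide synthase, stayed under 4 normalized counts in every library.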
